A study of Mus musculus with 8 samples.

Results

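The genes of mitochondrial protein import and of the chaperones of the mitochondrial matrix were examined in the cortex of Nuak1 knockout (KO) and wild-type (WT) mouse embryos. NUAK1 is a kinase of the AMPK-related family that is activated by LKB1 and takes part in the branching of cortical axons. Members were the rows of the count table whose symbol starts with Tomm or Timm followed by a digit, together with Samm50, Mtx1, Mtx2, Pmpca, Pmpcb, Hspd1, Hspe1, Hspa9, Grpel1, Grpel2, Dnajc19 and Trap1, provided that their counts summed to 80 or more over the 8 libraries. Of the 21165 rows, 34 matched by name and 31 of these had enough counts. The KO embryos came from a constitutive knockout line, in which the allele is carried by every cell type, kept on a C57Bl/6JRj background that the WT embryos shared, and KO animals of this line die at birth. Each genotype is represented by 4 embryos at E18.5, and the labels give 2 males among the KO embryos, 1 male among the WT embryos and 3 litters. Polyadenylated RNA of whole cortex was sequenced, so a change in the number of cells of a type and a change in RNA per cell cannot be told apart.

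Nearly all mitochondrial proteins are encoded in the nucleus, made in the cytosol and threaded into the organelle. Precursors are recognised and passed through the outer membrane by the TOM complex, after which SAM inserts barrel-shaped outer membrane proteins, small TIM chaperones escort hydrophobic precursors across the space between the membranes, TIM22 inserts carrier proteins into the inner membrane and TIM23 with its motor pulls presequence-carrying proteins into the matrix. There the processing peptidase removes the presequence, and HSP70 and the HSP60-HSP10 chaperonin fold the protein. Neurons depend on this route for the supply of mitochondria to long axons.

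Libraries are named by genotype and by the running number of their column, as in KO R1, since the columns carry no embryo, sex or litter. Totals lay between 9643711 and 27014858 counts, and 12699 genes passed the filter on low counts and were tested. Nuak1 had at most 20.5 normalized counts in any KO library and at least 877 in any WT library, so each column followed its genotype. Normalized counts are counts divided by the library's TMM-corrected size and brought back to the average size. Libraries of a genotype differed by more than sampling noise, with a chi-square per degree of freedom of at least 5.92. The 10 markers of cortical projection neurons that were tested were detected, and their summed level was 25497 to 28125 normalized counts in KO and 18870 to 24240 in WT, without overlap. KO R1 stood apart by its meningeal fibroblast markers, which summed to 10444 normalized counts there and to between 367 and 648 in the other libraries. The log2 fold change was above 0 for all 6 of these markers that were tested, all 9 endothelial and all 7 microglial markers. It was above 0 for 4 of the 5 red blood cell and 6 of the 10 projection neuron markers tested. For progenitor markers this held in 1 of 7 and for interneuron markers in 0 of 6, against 45.6% of all genes tested. None of the markers of these lists passed an adjusted p of 0.05 in edgeR's quasi-likelihood test. Endothelial markers summed to 3044 to 4751 in KO and 2789 to 3270 in WT, and microglial markers to 520 to 1067 and 515 to 743. Red blood cell markers, with Hbb-bh1 at 0 in every library, ranged from 1694 to 7064 in KO and from 1596 to 3813 in WT, progenitor markers from 6840 to 8977 and from 6601 to 10309, and interneuron markers from 2510 to 2818 and from 2615 to 3451. The part of cell composition in the results below was not tested.

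No member passed an adjusted p of 0.05 in edgeR's quasi-likelihood test, where 0.0709% of all genes tested did, and none passed with DESeq2, the tool of the authors. The log2 fold change was above 0 in 23 of the 31 members, against 45.6% of all genes tested, with a median of 0.06 in the members and -0.01 in all genes. At an unadjusted p under 0.05, 8 members were higher in KO, a share of 25.8% against 4.51% of all genes, namely Dnajc19, Timm22, Timm8b, Grpel1, Timm8a1, Tomm7, Hspe1 and Tomm5. Only Tomm34 was lower at that level, a share of 3.23% against 3.18% of all genes. The lowest KO library exceeded the highest WT library in 5 members, Dnajc19, Timm22, Timm8b, Grpel1 and Timm13, or 16.1% against 2.64% of all genes, and 0 members showed the opposite order, against 1.85% of all genes. With the thresholds used by the authors, which ask for a log2 fold change beyond 0.25 in either direction together with an unadjusted p under 0.05, Dnajc19 and Timm8a1 were higher, 6.45% of the members against 2.45% of all genes. Tomm7, at 0.246, and Tomm5, at 0.244, lay just under the fold threshold. DESeq2 gave the same direction for every one of the 9 members and an unadjusted p under 0.05 for the same 9, and its smallest adjusted p was 0.123.

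**Figure D1:**
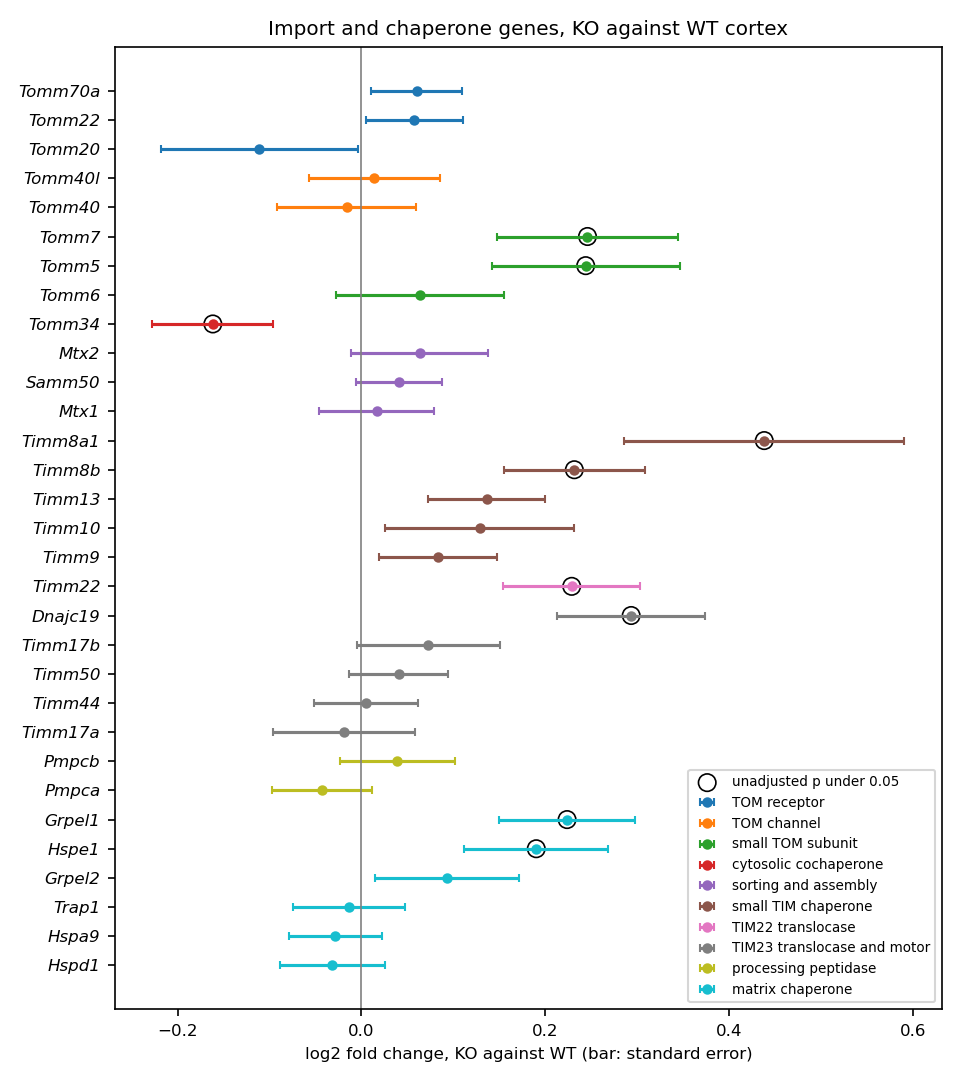
Log2 fold change of each member between KO and WT, grouped by role, with bars for the standard error and open circles for an unadjusted p under 0.05. The small TOM subunits and small TIM chaperones lie to the right of 0, while the TOM channel, the processing peptidase and the large matrix chaperones lie close to 0.

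The count of members depended on single libraries. Without KO R1, the library with the meningeal markers, 6 members were higher at an unadjusted p under 0.05 against 3.17% of all genes, while Tomm7, Hspe1 and, on the lower side, Tomm34 no longer had an unadjusted p under 0.05. It was 5 members without WT R3 (2.98% of all genes) and 11, all higher in KO, without WT R4 (7.05% of all genes). Dnajc19, Timm22, Timm8b, Grpel1 and Timm8a1 kept an unadjusted p under 0.05 in all 8 fits that left out a library.

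Precursors meet the TOM complex through its receptors TOMM20, TOMM22 and TOMM70. Tomm70a, the receptor for carrier precursors and their cytosolic chaperones, had 3554, 3757, 3755 and 3741 normalized counts in KO R1 to R4 and 3484, 3473, 3451 and 3804 in WT R1 to R4. The highest value was WT R4, so the genotypes overlapped, and the log2 fold change of 0.06 had a 95% interval from -0.05 to 0.17. Tomm22, the central receptor that also holds the complex together, had 1075, 1054, 1111 and 1077 in KO and 1043, 1048, 980 and 1079 in WT, a log2 fold change of 0.06 (interval from -0.06 to 0.17). Tomm20, the presequence receptor, differed more between libraries of a genotype than the other 2 receptors. It had 2054, 1715, 1603 and 1551 normalized counts in KO and 1647, 1665, 2054 and 2113 in WT. The high libraries were KO R1, WT R3 and WT R4, and the log2 fold change of -0.11 (interval from -0.35 to 0.12) did not pass. Tomm40, the channel itself, overlapped between the genotypes, with 1060, 961, 957 and 921 normalized counts in KO and 922, 903, 1029 and 1095 in WT (log2 fold change -0.02, interval from -0.18 to 0.15). Its paralogue Tomm40l had a log2 fold change of 0.01, with libraries between 756 and 909 normalized counts.

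The small TOM subunits, single-span proteins that stabilise the complex around the channel, had positive log2 fold changes with a median of 0.24. Of the 3, 2 had an unadjusted p under 0.05. Each encodes fewer than 150 residues. Of all genes tested of that size, 71.4% were above 0 and 16.2% were higher at an unadjusted p under 0.05. Tomm7 had 1238, 1011, 1213 and 1016 normalized counts in KO and 912, 978, 810 and 1083 in WT. The KO libraries R1 and R3 were above every WT library, while R2 and R4 were above all but WT R4. The mean ± SD of the 4 libraries was 1120 ± 123 for KO and 946 ± 115 for WT, and the log2 fold change was 0.25 (standard error 0.10, unadjusted p = 0.0298, adjusted p = 0.629 from edgeR). Tomm5 had 384, 356, 405 and 419 normalized counts in KO and 336, 330, 277 and 383 in WT. WT R3 was the lowest and WT R4 reached the KO range, and the log2 fold change was 0.24 (standard error 0.10, unadjusted p = 0.0360, adjusted p = 0.631 from edgeR). Tomm6 did not differ to that extent, with a log2 fold change of 0.06 (interval from -0.14 to 0.27). Its highest library was WT R4 at 1162 normalized counts, above the KO maximum of 1079, and the log2 fold change without WT R4 was 0.17. Exons of Tomm6, whose transcript has 749 bases, overlap Prickle4 on the same strand by up to 488 bases. The part of this overlap in the counts of Tomm6 was not tested. Tomm34, a cytosolic protein that binds HSP70, HSP90 and precursors on their way to the organelle, was the one member below 0 at an unadjusted p under 0.05. It had 625, 643, 663 and 602 normalized counts in KO and 657, 751, 700 and 726 in WT, and only WT R1 fell within the KO range. Its log2 fold change was -0.16 (standard error 0.07, unadjusted p = 0.0316, adjusted p = 0.630 from edgeR), and 2 of the 8 fits that left out a library kept an unadjusted p under 0.05.

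The SAM genes stayed within the spread of the libraries. Samm50, the barrel that inserts other barrels, had 2163 ± 76.6 normalized counts in KO and 2103 ± 38.6 in WT (mean ± SD of 4 libraries each), and its log2 fold change was 0.04. Mtx1 and Mtx2, the metaxins on its cytosolic face, had log2 fold changes of 0.02 and 0.06. The upper ends of the 95% intervals of these genes were 0.14 for Samm50, 0.15 for Mtx1 and 0.23 for Mtx2.

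The small TIM chaperones form ring-shaped assemblies between the membranes, TIMM9 with TIMM10 and TIMM8 with TIMM13. All 5 had a log2 fold change above 0, with a median of 0.14. Each encodes fewer than 150 residues, and 71.4% of all genes tested of that size were above 0. Timm8b, one of the most abundant members per length, had 1235, 1040, 1134 and 1212 normalized counts in KO and 1038, 1022, 864 and 1013 in WT. The lowest KO library, R2, lay just above the highest WT library, R1, so the groups did not overlap but lay close together. The log2 fold change was 0.23 (standard error 0.08, unadjusted p = 0.0115, adjusted p = 0.540 from edgeR). Timm8a1, the mouse counterpart of the gene mutated in a human deafness and dystonia syndrome, had the largest difference of all members and the lowest counts. It had 122, 102, 112 and 87.7 normalized counts in KO and 73.0, 77.1, 70.0 and 92.9 in WT, with KO R4 below WT R4. The log2 fold change was 0.44 (standard error 0.15, unadjusted p = 0.0152, adjusted p = 0.555 from edgeR). It lies on the X chromosome, as does Timm17b. The unequal number of males was not taken into account, as the columns carry no sex label. Timm13 was the most even gene in KO, with 780, 789, 795 and 786 normalized counts, against 769, 724, 646 and 726 in WT. The groups did not overlap, but the log2 fold change of 0.14 had an unadjusted p of 0.0569. Timm13 is the only member on the chromosome of Nuak1, chromosome 10 of NCBIM37, from 80362195 to 80363714, at 3.47 Mb from Nuak1, and the part of the knockout allele's flanks was not tested. Timm9 and Timm10 had log2 fold changes of 0.08 and 0.13, and WT R4 held 512 normalized counts of Timm10, above every KO library.

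Timm22, the channel that inserts metabolite carriers and the multi-span TIM proteins into the inner membrane, had 423, 414, 412 and 410 normalized counts in KO and 349, 358, 325 and 383 in WT. Every KO library was above every WT library, and the KO values lay within 12.7 counts of each other. The log2 fold change was 0.23 (standard error 0.07, unadjusted p = 0.0105, adjusted p = 0.533 from edgeR). The gene lies on chromosome 11 of NCBIM37 from 76220454 to 76229794.

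In the TIM23 branch 1 of the 5 members was higher at an unadjusted p under 0.05, against 4.51% of all genes. This was Dnajc19, an inner membrane J-domain protein that associates with the import motor and is mutated in a human cardiomyopathy with ataxia. It had 545, 464, 525 and 497 normalized counts in KO and 445, 392, 388 and 434 in WT. KO R2, the lowest KO library, was above WT R1, the highest WT library. The means were 508 ± 35.1 and 415 ± 28.9 (SD, n = 4 each), and the log2 fold change of 0.29 (standard error 0.08, unadjusted p = 0.00377, adjusted p = 0.440 from edgeR) had the smallest p of the members, at rank 102 among all genes tested. Dnajc19 lies on the minus strand of chromosome 3 of NCBIM37 from 33954942 to 33980243. The receptor Timm50 had 1222, 1300, 1183 and 1230 normalized counts in KO and 1188, 1240, 1147 and 1218 in WT, a log2 fold change of 0.04 (interval from -0.08 to 0.16). Timm44, which ties the motor HSP70 to the channel, had 1070, 1181, 1135 and 1219 in KO and 1155, 1140, 1116 and 1182 in WT, a log2 fold change of 0.005 (interval from -0.12 to 0.13). The paralogous channel subunits Timm17a and Timm17b had log2 fold changes of -0.02 and 0.07. Timm23, the channel-forming subunit, could not be followed. Its row held 1 count over all libraries, and 99.1% of its transcript lies in stretches at least 98% identical to other places in the genome. Timm8a2, with 5 counts, and Tomm20l, with 0, were the other rows below the limit of 80, and Timm8a1, with 740 counts, was the member nearest above it.

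**Figure D2:**
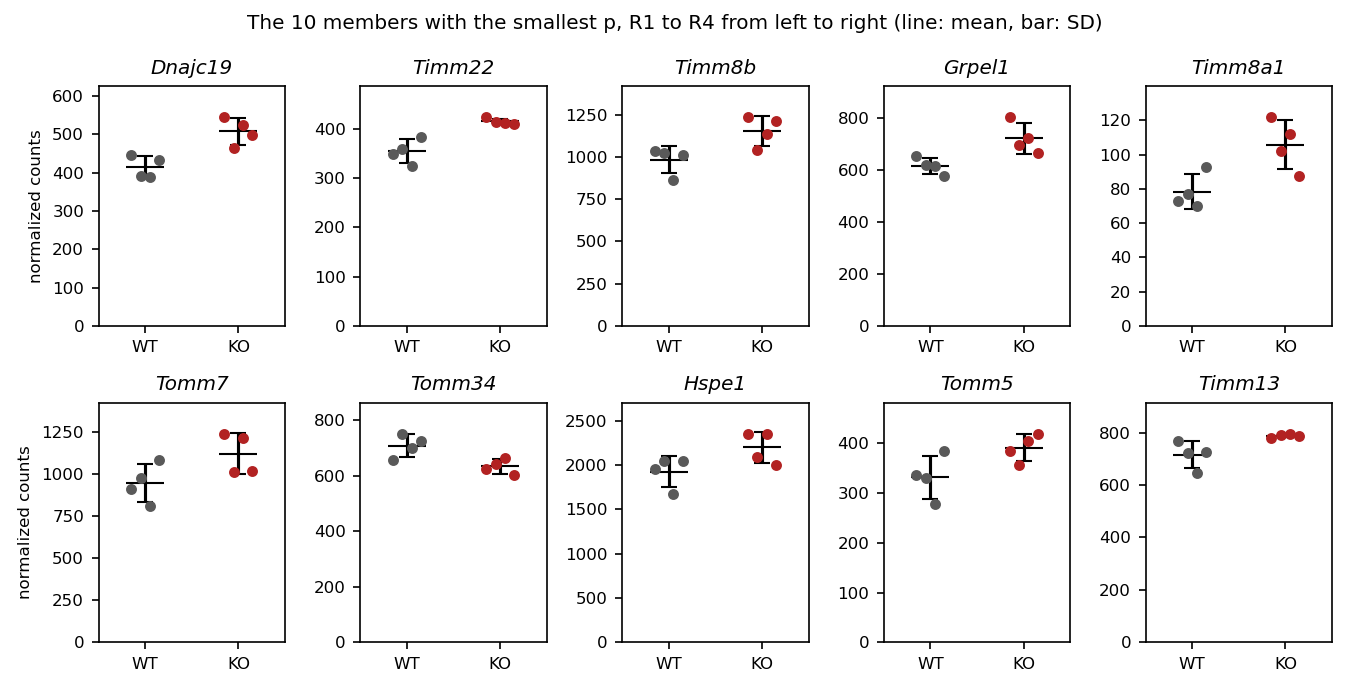
Normalized counts per library of the 10 members with the smallest p, with WT in grey and KO in red, the mean as a line and the SD as a bar, on axes that start at 0. Dnajc19, Timm22, Timm8b, Grpel1 and Timm13 show no overlap between the genotypes, and Tomm34 is the one gene that is lower in KO.

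The processing peptidase and the large matrix chaperones had log2 fold changes near 0. Pmpca had a log2 fold change of -0.04 (interval from -0.16 to 0.08) and Pmpcb of 0.04 (interval from -0.10 to 0.18). Hspa9, the mitochondrial HSP70 that drives the motor and folds imported proteins, had 6022, 6139, 6380 and 6059 normalized counts in KO and 6304, 6649, 6204 and 5924 in WT. Its log2 fold change was -0.03, with a 95% interval from -0.14 to 0.08. Trap1, the HSP90 of the matrix, had a log2 fold change of -0.01 (interval from -0.15 to 0.12). Grpel1 encodes the nucleotide exchange factor of HSPA9. It had 802, 695, 723 and 663 normalized counts in KO and 652, 619, 613 and 578 in WT, without overlap, although KO R4 and WT R1 were only 10.6 counts apart. Its log2 fold change was 0.22 (standard error 0.07, unadjusted p = 0.0115, adjusted p = 0.540 from edgeR) and 0.18 without KO R1. Its paralogue Grpel2 had a log2 fold change of 0.09 (interval from -0.08 to 0.27).

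The chaperonin is built from HSP60, encoded by Hspd1, and its lid HSP10, encoded by Hspe1. The genes lie head to head on chromosome 1 of NCBIM37, Hspd1 on the minus strand from 55134679 to 55145087 and Hspe1 on the plus strand from 55144976 to 55148151. Their exons overlap by 112 bases on opposite strands, and the strand setting of the counting is not given in the sources used here. Hspd1 was the most abundant member per length, with 3175 normalized counts per kilobase of transcript, and Hspe1 was next with 2663. Near-identical copies elsewhere in the genome cover 92.2% of the Hspd1 and 69.3% of the Hspe1 transcript. This limits the ranking and the ratio of the 2 genes given below. Hspd1 had 7072, 7959, 7945 and 7465 normalized counts in KO and 7672, 8328, 7610 and 7501 in WT, a log2 fold change of -0.03 (interval from -0.16 to 0.09). Hspe1 had 2351, 2084, 2347 and 2004 in KO and 1949, 2039, 1671 and 2040 in WT. KO R1, R2 and R3 were above every WT library and KO R4 was not. The log2 fold change of Hspe1 was 0.19 (standard error 0.08, unadjusted p = 0.0331, adjusted p = 0.631 from edgeR). The ratio of Hspe1 to Hspd1 normalized counts was 0.332, 0.262, 0.295 and 0.268 in KO and 0.254, 0.245, 0.220 and 0.272 in WT. Chosen after these values were seen, a test of the log2 ratio gave a difference of 0.22 between KO and WT, which did not pass (2-sided exact permutation test, p = 0.0857, where 4 against 4 libraries allow 0.0286 at the least).

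**Figure D3:**
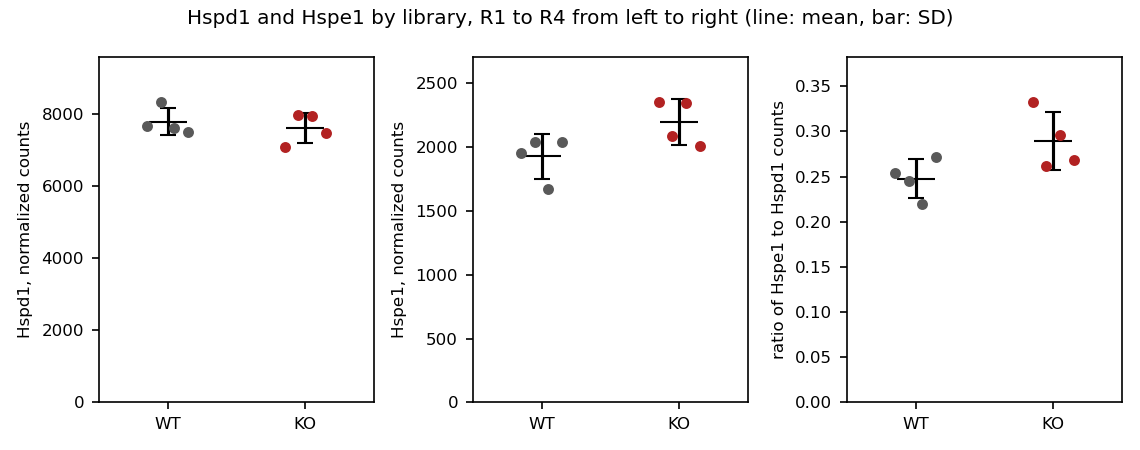
Normalized counts of Hspd1 and Hspe1 and the ratio of Hspe1 to Hspd1 in each library, with WT in grey and KO in red, the mean as a line and the SD as a bar, on axes that start at 0. Hspd1 overlaps between the genotypes, while the ratio is highest in KO R1 at 0.332 and lowest in WT R3 at 0.220.

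The stretch between the divergent starts of Hspd1 and Hspe1 is shown because both genes of the chaperonin are read from it. It was taken from the RefSeq promoter of Hspe1 on GRCm38.p6, chr1:55087933-55088147 on the plus strand, with Hspd1 starting to the left and Hspe1 to the right. A further Hspd1 start lies within Hspe1. Capitals mark matches, on either strand, to CCGGAAG (the core bound by ETS factors such as GABP), GGGCGG (SP1) and GAANNTTC (a heat shock element).

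Hspd1-Hspe1 gap: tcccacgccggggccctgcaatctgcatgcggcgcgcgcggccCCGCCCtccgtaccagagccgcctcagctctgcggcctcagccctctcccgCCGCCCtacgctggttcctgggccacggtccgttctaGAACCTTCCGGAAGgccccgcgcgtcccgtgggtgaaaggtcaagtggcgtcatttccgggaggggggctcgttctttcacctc

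The gap holds an element match at base 132 that overlaps the ETS core, which matches on both strands at bases 136 and 139, and SP1 matches at bases 44 and 95. The 250 bases before the start of Dnajc19, Timm22, Timm8b and Grpel1, the members at an unadjusted p under 0.05 whose libraries did not overlap, are shown in the direction of transcription with the same marks. They lie on GRCm38.p6 at chr3:34081355-34081604 on the minus strand, chr11:76406675-76406924, chr9:50603651-50603900 and chr5:36464935-36465184 on the plus strand.

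Dnajc19: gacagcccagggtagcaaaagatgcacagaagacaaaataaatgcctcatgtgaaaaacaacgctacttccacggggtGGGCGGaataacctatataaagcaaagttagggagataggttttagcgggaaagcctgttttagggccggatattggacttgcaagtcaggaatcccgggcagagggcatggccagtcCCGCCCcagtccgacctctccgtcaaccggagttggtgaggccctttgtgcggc

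Timm22: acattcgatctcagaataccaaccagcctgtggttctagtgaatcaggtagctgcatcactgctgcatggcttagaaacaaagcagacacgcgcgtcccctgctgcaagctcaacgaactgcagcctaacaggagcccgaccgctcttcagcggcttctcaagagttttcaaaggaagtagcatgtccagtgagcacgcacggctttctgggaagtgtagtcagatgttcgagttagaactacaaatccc

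Timm8b: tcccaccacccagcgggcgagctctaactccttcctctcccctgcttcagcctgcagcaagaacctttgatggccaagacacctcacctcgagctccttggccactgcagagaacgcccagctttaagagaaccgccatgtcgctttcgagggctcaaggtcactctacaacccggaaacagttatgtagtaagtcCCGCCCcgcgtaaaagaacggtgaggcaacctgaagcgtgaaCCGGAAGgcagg

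Grpel1: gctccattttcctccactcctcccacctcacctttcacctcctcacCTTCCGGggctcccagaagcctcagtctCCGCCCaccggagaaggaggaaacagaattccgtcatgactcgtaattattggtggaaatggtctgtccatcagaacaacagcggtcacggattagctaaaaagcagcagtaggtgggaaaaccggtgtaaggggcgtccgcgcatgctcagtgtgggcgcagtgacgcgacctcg

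None of the motifs searched was present in all 4 of these promoters. Dnajc19 holds SP1 matches at 172 and 54 bases before the start, Timm8b an ETS match at 12 and an SP1 match at 54 bases before it, and Grpel1 an ETS match at 204 and an SP1 match at 176 bases before it, while Timm22 holds none of them. Of the 31 members, 27 had a RefSeq promoter, and 12 of these (44.4%) held the ETS core within 250 bases, against 7.83% of all genes with a promoter and 15.0% of those tested here. The ETS core was present in Hspd1, Hspe1, Mtx1, Mtx2, Pmpca, Pmpcb, Timm10, Tomm22, Tomm34 and Tomm70a beside Grpel1 and Timm8b, so 4 of these 12 were among the 9 members at an unadjusted p under 0.05. SP1 sites were found in 66.7% of members and 65.8% of tested genes, the heat shock element in 11.1% and 5.96%, and the palindromic site of NRF1 in 7.41% and 9.18%. Hspd1 and Hspe1 share the gap shown above, so its matches were counted for each of them and their promoters are not independent. Beside these genes, only Timm9 held the heat shock element. A match is a description of the letters, not a bound site.

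Across the members, the log2 fold change was larger for shorter proteins. Residues were counted from the longest coding sequence annotated for each gene, and shorter forms were not examined. In the 11 members that encode fewer than 150 residues by this count, 10 log2 fold changes were above 0 and the median was 0.14. Dnajc19, at 157 residues, lay just above this limit. The 11 with at least 150 and fewer than 400 residues had a median of 0.06, and the 9 with 400 residues or more, among them Hspa9, Hspd1, Trap1, Pmpca and Samm50, had a median of 0.005 and stayed between -0.04 and 0.06. Across the 31 genes the log2 fold change and the log2 coding length had a Spearman correlation of -0.66 and a Pearson correlation of -0.59, given as a description since the genes share the same libraries. With transcript length, untranslated ends included, the correlations were weaker, at -0.26 and -0.24. All genes tested showed a weaker relation of the same sign, with a Spearman correlation of -0.17 over 12196 genes. Among all genes tested with fewer than 150 residues, the median log2 fold change was 0.09, 71.4% were above 0 and 16.2% were higher at an unadjusted p under 0.05. These shares are the nearest background for the small members, of which 5 of 11 were higher at that level. At 400 residues or more the corresponding shares of all genes were 40.0% and 2.98%. With the trend of counts against transcript length, not coding length, removed in each library, 5 members remained higher at an unadjusted p under 0.05 (Dnajc19, Grpel1, Timm22, Timm8a1 and Tomm7), against 4.30% of all genes, and the median over the members was 0.03. Timm8b, Hspe1 and Tomm5 then had log2 fold changes of 0.11, 0.11 and 0.16.

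**Figure D4:**
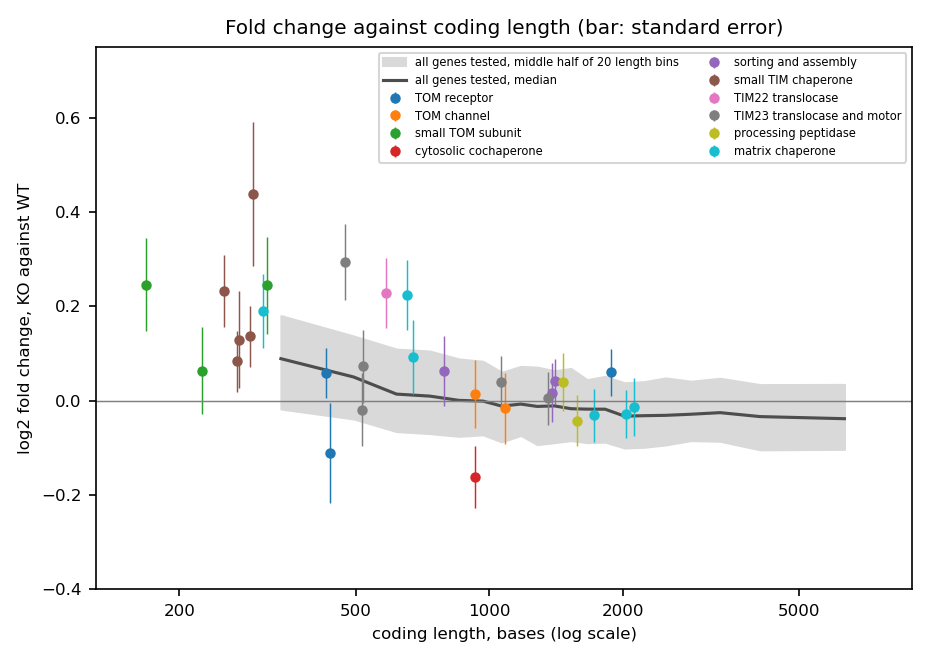
Log2 fold change between KO and WT against coding length on a log scale, with members coloured by role and bars for the standard error, the median of all genes tested as a line and their quartiles as a grey band, in length bins of equal gene number. The shortest members spread upward to 0.44, and those of 400 residues or more lie between -0.04 and 0.06.

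The libraries differed in how the members sat around their own means. The median deviation over the 31 members was 0.10, 0.03, 0.05 and 0.01 on the log2 scale in KO R1 to R4 and -0.03, -0.04, -0.12 and 0.01 in WT R1 to R4. WT R3 was the lowest library, with 6 members above their mean, and WT R4 had 18 above, within the KO range of 16 to 21. For the 8 members higher at an unadjusted p under 0.05, which were picked on these values, the median deviation was -0.30 in WT R3 and 0.23 in KO R1. WT R3 also had the highest summed level of progenitor markers, 10309 normalized counts, and KO R1 the second highest, 8977. KO R1 had the highest level of the meningeal and endothelial markers. A link between these levels and the deviations was not tested.

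**Figure D5:**
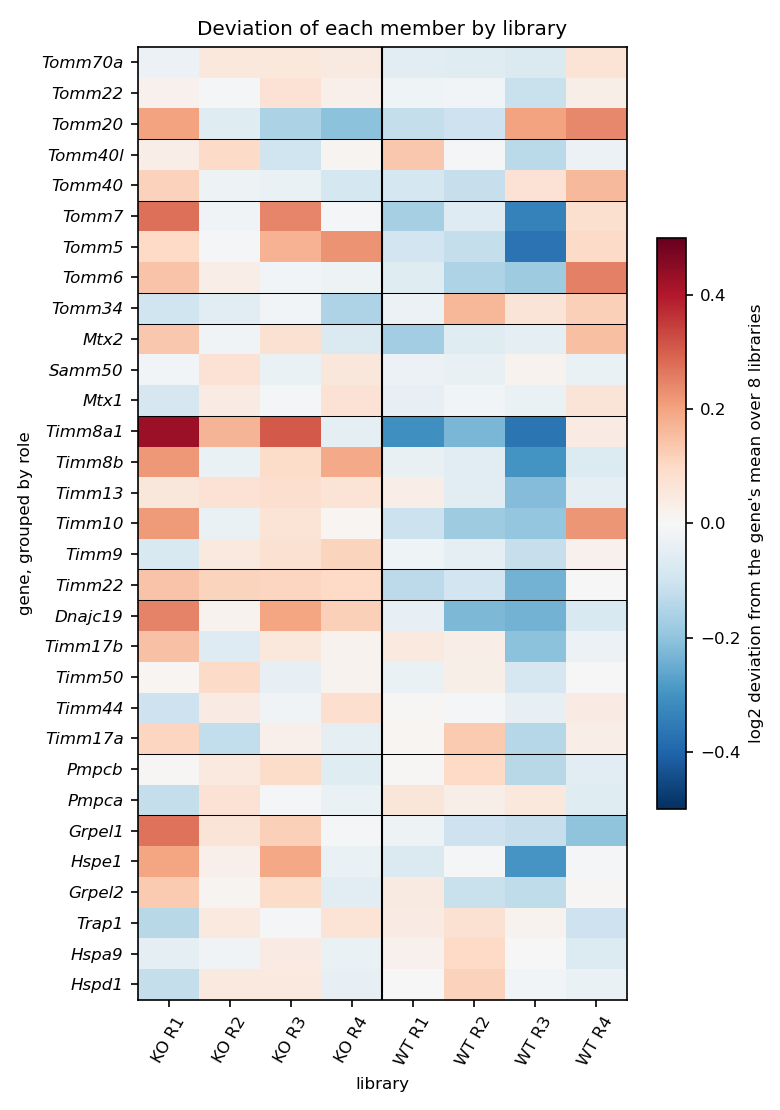
Deviation of each member from its own mean over the 8 libraries, on the log2 scale, with KO R1 to R4 on the left and WT R1 to R4 on the right and genes grouped by role. WT R3 is lowest for the small subunits, Tomm20 is high in KO R1, WT R3 and WT R4, and the bottom rows, Trap1, Hspa9 and Hspd1, show only pale colours.

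Copies elsewhere in the genome limit some of these values, since reads from identical stretches can be lost or misplaced when they are mapped. At a minimum of 98% identity over 100 bases, 85.5% of the Timm8a1 transcript, 75.8% of Tomm5, 69.3% of Hspe1, 92.2% of Hspd1 and 71.5% of Tomm20 had a copy. The copy of Timm8a1 on chromosome 10 of NCBIM37, from 11329022 to 11330236, is 99.9% identical over 1215 bases. For Dnajc19 the share was 16.2% and for Grpel1 5.02%, and Timm22, Timm8b, Timm13, Tomm7 and Tomm34 had none. Exons of Dnajc19, Timm8b and Grpel1 overlap a gene on the opposite strand, by up to 91, 81 and 411 bases.

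Other genes of the route outside the rule stayed close to 0 for the most part. Of 34 symbols listed, 31 were tested, 18 (58.1%, against 45.6% of all genes) with a log2 fold change above 0, with a median of 0.01, and 0 passed an adjusted p of 0.05. At an unadjusted p under 0.05, 2 were higher, Romo1 and Hsp90aa1, a share of 6.45% against 4.51% of all genes, and 0 were lower. Romo1, a small inner membrane protein that aids TIM23-linked import, had 733 to 951 normalized counts in KO and 595 to 736 in WT, so that its lowest KO library lay just below its highest WT library. Its log2 fold change was 0.36 (standard error 0.09, unadjusted p = 0.00228, adjusted p = 0.391 from edgeR). Hsp90aa1, a cytosolic HSP90 that hands precursors to TOMM70, had a log2 fold change of 0.13 (unadjusted p = 0.0476, adjusted p = 0.646 from edgeR). Mipep, an intermediate peptidase of the matrix, and Mtx3, a further metaxin, were lower in every KO library than in any WT library. This order held for these 2 of the 31 against 1.85% of all genes, and the opposite order for 0 against 2.64%. Mipep and Mtx3 had log2 fold changes of -0.10 and -0.14 at unadjusted p of 0.0940 and 0.137 from edgeR. The matrix proteases Lonp1, Clpp and Clpx had log2 fold changes of 0.01, 0.05 and 0.04, and the stress response factors Atf4, Atf5 and Ddit3 of 0.001, 0.03 and 0.04. After the table had been read, 3 further genes were looked up under older symbols, Timm21 as 1700034H14Rik, Timm29 as 1810026J23Rik and Timmdc1 as 4930455C21Rik. Timm21, a TIM23 subunit, had 567 ± 6.94 normalized counts in KO and 511 ± 47.4 in WT (mean ± SD of 4 libraries each), without overlap, and a log2 fold change of 0.15 at an unadjusted p of 0.0808. Timm29, a TIM22 subunit, and Timmdc1 overlapped between the genotypes, with log2 fold changes of -0.28 and 0.02 at unadjusted p of 0.280 and 0.779. Fxc1, the older symbol of Timm10b, is listed at 0.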

How the data were processed

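RNA of the cortices of 4 KO and 4 WT embryos was sequenced as paired reads from a stranded poly-A kit. Trimming by the authors used Cutadapt 1.13 and Prinseq, and mapping to mm9 used TopHat2 2.0.13 with Samtools 0.1.19. HTSeq-count then gave the raw counts, which the authors deposited for 21165 gene rows. Each library held 9643711 to 27014858 counts, and these few libraries limit the precision. Nothing in the labels says whether RNA was handled in batches. P-values measure the spread between embryos.

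Columns were grouped by the genotype in their name, with 0 columns left unused. The quasi-likelihood test of edgeR 4.0.16 (in R 4.3.3, after filterByExpr and TMM scaling, with Benjamini-Hochberg adjustment) was run on the 12699 genes that passed the filter, which hold 99.9% of all counts. The standard error is the log2 fold change divided by the root of F, and intervals cover 95%. The script was tested on simulated data. Members and gene lists were chosen with earlier results of these data known. Members at an unadjusted p under 0.05 or without overlap, and 10 core translocase and chaperone genes, were given per library. Lengths are those of the transcript with the longest coding sequence in GENCODE vM1 on NCBIM37, the assembly behind mm9, where all 34 matching rows were found. Copies were searched with blastn. Promoters are from RefSeq (GRCm38.p6), and no coordinate was converted between the builds. Alternatives were DESeq2 1.42.0 (also on all genes with a count, added later), its size factors, other filters, removal of the length trend by loess and each library left out.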

Additional observations from a re-analysis of the deposited data

Results flagged for a closer look

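Dixon's criterion was applied to each member within each genotype, and compares a library's distance from its neighbour with the spread of all 4. It was passed 4 times in 62 such sets, and chance alone gives about 3.1. Tomm70a was apart in both genotypes, with WT R4 high at 3804 normalized counts against 3451 to 3484 in the other WT libraries and KO R1 low at 3554 against 3741 to 3757. Timm8b was low in WT R3, at 864 normalized counts against 1013 to 1038 in the other WT libraries. Samm50 was high in WT R3, at 2160 normalized counts against 2077 to 2090. Without WT R3 the log2 fold change of Timm8b was 0.18 in place of 0.23, and without WT R4 that of Tomm70a was 0.10 in place of 0.06.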

How the results depend on the processing

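No paired analysis was possible because no litter or embryo can be read from the names of the columns. No member passed an adjusted p of 0.05 under any alternative. The number of members at the thresholds of the authors was 2 and became 4 with DESeq2, under DESeq2's size factors, without a filter on low counts, with at least 10 counts in every library and with DESeq2 on all genes with a count, where Tomm7 and Tomm5 crossed a fold threshold they had lain just under. Leaving out 1 library gave 2 to 6. The number at an unadjusted p under 0.05 was 9 and ranged from 5 without WT R3 to 11 without WT R4. Over all genes, 9 passed an adjusted p of 0.05 in edgeR, 70 in DESeq2 (71 when every gene with a count entered) and 2 to 11 in edgeR with 1 library left out, and 540 passed the thresholds of the authors, against 426 to 847 with 1 library left out. The median log2 fold change of the members and that of Nuak1 kept their direction in every fit, except that Nuak1 is not tested under the minimum of 10 counts. With the length trend removed, the log2 fold change was -0.00114 for Timm44 and -0.0187 for Tomm6, both above 0 with all libraries and no such correction. With a library left out, genes near 0 changed sign, from -0.0529 to 0.00959 for Hspd1, -0.0482 to 0.00164 for Hspa9, -0.0416 to 0.0352 for Trap1, -0.0614 to 0.0274 for Timm17a, -0.0575 to 0.0418 for Tomm40, -0.0200 to 0.0656 for Tomm40l, -0.00699 to 0.0529 for Mtx1 and -0.0245 to 0.0455 for Timm44. The cause was not tested.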
